A study of Homo sapiens with 6 samples.

Results

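Genes that carry new proteins into the endoplasmic reticulum (ER), fold them there and remove those that fail were followed in Huh7 cells, a human hepatocellular carcinoma line, after knockdown of CTSV. Its product, cathepsin V, is a cysteine protease of the lysosome. The set, with its roles, was chosen by gene name for function, with earlier results of these data known. It holds 47 genes out of 27394 gene names in the count table, and each name was found. It covers 16 chaperones and folding enzymes and 16 genes of the signal recognition particle (SRP) and translocon. There are 5 signal peptidase genes, 6 genes of ER-associated degradation and 4 called sensor genes here. These 4 encode the unfolded protein response sensors and the transcription factor XBP1. RNA-seq of poly(A) RNA gave 3 libraries with a control short hairpin RNA (shRNA), whose genotype the labels give as WT, and 3 with an shRNA against CTSV, labelled CTSV knockdown. All were Huh7 grown in DMEM with fetal bovine serum. The sources used here do not give the number of shRNAs or clones, the time after knockdown, or whether the libraries were grown as separate cultures. The p-values therefore rest on the spread from library to library, and that spread may be technical.

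Many secretory and membrane proteins begin with a signal sequence, which SRP binds on the ribosome and brings to its receptor on the ER membrane. The chain then passes through the SEC61 channel, signal peptidase removes the signal, and BiP, lectin chaperones and disulfide isomerases fold the product. Chains that stay misfolded are drawn back to the cytosol by the HRD1 complex for the proteasome. When unfolded protein builds up, 3 membrane sensors respond, IRE1, ATF6 and PERK. Hepatocytes, which make most plasma proteins, use this route heavily.

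Regulatory sequence of the members is shown first, because the transcription factors ATF6 and XBP1 are members themselves and act through known promoter elements. RefSeq promoters (GRCh38.p14, 250 bases before to 50 after each annotated start) were matched for 44 members, and PDIA3, DERL1 and SPCS1 had no entry. Each promoter was searched on both strands for the ER stress response element ERSE (CCAAT and CCACG with any 9 bases between them), for ERSE-II (ATTGG and CCACG with any 1 base between them) and for the unfolded protein response element UPRE, TGACGTGG. ERSE was found in promoters of 8 of the 44 members, or 18.2%, against 0.0916% of 27305 genes in the promoter table and 0.0769% of its 35116 promoters. The elements are named for responses to ER stress or unfolded protein, and the members were chosen for ER function. A high share is thus partly built into the choice, and no test was made of it. The sites are listed with the element in capitals and read on the strand on which it runs forward.
CALR at chr19:12938379-12938407, minus strand: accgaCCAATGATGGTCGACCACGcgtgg
CANX at chr5:179698773-179698801, plus strand: cccggCCAATCTTCACACTCCACGaagaa
CRELD2 at chr22:49918549-49918577, minus strand: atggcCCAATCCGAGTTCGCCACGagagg
ERO1B at chr1:236282178-236282206, plus strand: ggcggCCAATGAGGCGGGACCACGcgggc
HSP90B1 at chr12:103930211-103930239, plus strand: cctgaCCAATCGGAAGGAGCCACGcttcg
HSP90B1 at chr12:103930316-103930344, minus strand: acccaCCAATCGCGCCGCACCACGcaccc
HSPA5 at chr9:125241386-125241414, minus strand: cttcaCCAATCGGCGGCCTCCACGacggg
PDIA6 at chr2:10812848-10812876, minus strand: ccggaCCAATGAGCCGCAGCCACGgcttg
XBP1 at chr22:28800598-28800626, minus strand: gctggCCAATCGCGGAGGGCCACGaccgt

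The 8 genes with an ERSE did not move together. CANX, HSPA5 and XBP1 fell, HSP90B1 and ERO1B rose, and CALR, CRELD2 and PDIA6 were not called. ERSE-II was found in 3 members, 6.82% of the 44, against 0.0696% of genes in the table and 0.0541% of its promoters, and all 3 fell. Of all 47 members 68.1% fell.
HERPUD1 at chr16:56932016-56932044, plus strand: cggacgccgATTGGGCCACGttgggagag
HYOU1 at chr11:119057265-119057293, plus strand: cgcgtactcATTGGACCACGtcccaggcc
HYOU1 at chr11:119057371-119057399, plus strand: cggcctgggATTGGACCACGtcacggggc
SDF2L1 at chr22:21642105-21642133, minus strand: agggttttgATTGGTCCACGcttccgagg

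UPRE was found in 5 members, 11.4% of the 44, against 0.927% of genes and 0.729% of promoters. Of these, 4 fell and SRP19 was not called. In HYOU1, 1 UPRE overlaps an ERSE-II on the other strand, so the same bases count for both.
HYOU1 at chr11:119057376-119057403, minus strand: gctggccccgTGACGTGGtccaatccca
SEC62 at chr3:169966780-169966807, minus strand: cggttccctcTGACGTGGagcgaggagg
SRP19 at chr5:112861165-112861192, minus strand: ctctagtctcTGACGTGGcatgaagact
SSR3 at chr3:156554149-156554176, plus strand: gtttccttgcTGACGTGGctgttatcag
SSR4 at chrX:153794529-153794556, minus strand: ctggcagcacTGACGTGGcccctccctg

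The HSPA5 and HYOU1 promoters are printed over the 250 bases before the annotated start, since they hold a single exact ERSE and the cluster of ERSE-II and UPRE.
HSPA5 at chr9:125241344-125241593, minus strand: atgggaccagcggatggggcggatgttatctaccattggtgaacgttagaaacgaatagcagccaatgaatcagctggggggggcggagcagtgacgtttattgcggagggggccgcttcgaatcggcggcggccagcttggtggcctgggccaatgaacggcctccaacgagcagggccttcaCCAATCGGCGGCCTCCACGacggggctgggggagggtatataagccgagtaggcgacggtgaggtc
HYOU1 at chr11:119057206-119057455, minus strand: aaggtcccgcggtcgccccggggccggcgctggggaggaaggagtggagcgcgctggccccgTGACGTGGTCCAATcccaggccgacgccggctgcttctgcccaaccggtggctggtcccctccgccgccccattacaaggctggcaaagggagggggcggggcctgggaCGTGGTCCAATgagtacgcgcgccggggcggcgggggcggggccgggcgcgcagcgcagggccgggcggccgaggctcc

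Outside the members, 9 tested genes had an ERSE, of which 3 fell and 0 rose, and 11 had an ERSE-II, of which 3 fell and 1 rose. For the more common UPRE, 38 of 117 such genes fell and 23 rose. Beside these counts, 21.6% of all tested genes fell and 18.7% rose. Among those with a mean of at least 10 CPM (defined below) the shares were 33.4% and 19.8%. Whether the element had a part in these changes was not tested. A match is a description of the letters and not evidence of binding.

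In knockdown libraries 32 of the 47 genes fell, 4 rose and 11 were not called (edgeR's quasi-likelihood test, adjusted p under 0.05 over all 15968 genes tested). All 47 were tested. Over all tested genes 21.6% fell and 18.7% rose. Every member had a mean of at least 10 CPM (the count scaled to library size after TMM normalization), and among the 9437 tested genes at that level 33.4% fell and 19.8% rose. The members, chosen with earlier results known, had shares of 68.1% and 8.51%. Their median log2 fold change, CTSV shRNA over control shRNA, was -0.26, against -0.07 for all tested genes at 10 CPM or more and 0.02 for all tested genes. The changes were small, from -0.69 for SDF2L1 to 0.30 for ERO1B. In 32 members every knockdown library lay below every control library and in 4 every one lay above, where 37.3% and 22.7% of tested genes at that level did so, or 25.1% and 24% of all tested genes. Despite the equal counts, these are not exactly the called genes. MANF, ERN1 and ERO1B were called with overlapping groups, while DERL2, SRP19 and PDIA6 did not overlap and were not called. The authors' deposited table gives 31 members lower and 3 higher at its own adjusted p under 0.05. Since a library pools many cells and CPM is relative to its total, fewer expressing cells and less RNA per cell cannot be told apart.

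By role, all 4 sensor genes fell, as did 14 of 16 SRP and translocon genes and 3 of 5 signal peptidase genes. Falls came in 9 of 16 chaperones and 2 of 6 degradation genes. The shares, in that order, were 100%, 87.5%, 60%, 56.25% and 33.3%, beside 33.4% of all tested genes at 10 CPM or more. The degradation share thus lay near that of genes at this level. Median log2 fold changes were -0.39 for both the sensor genes and the SRP and translocon genes, -0.23 for signal peptidase, -0.24 for chaperones and -0.09 for degradation. The 4 rises were all chaperones or folding enzymes, 25% of that role, beside 19.8% of all tested genes at 10 CPM or more. Raw counts on the 47 genes took 1.11% to 1.12% of each control library and 1.01% to 1.02% of each knockdown library. The SRP and translocon share went from 0.279% to 0.289% in controls to 0.231% to 0.238%, and the chaperone share from 0.662% to 0.668% to 0.634% to 0.638%.

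**Figure D1:**
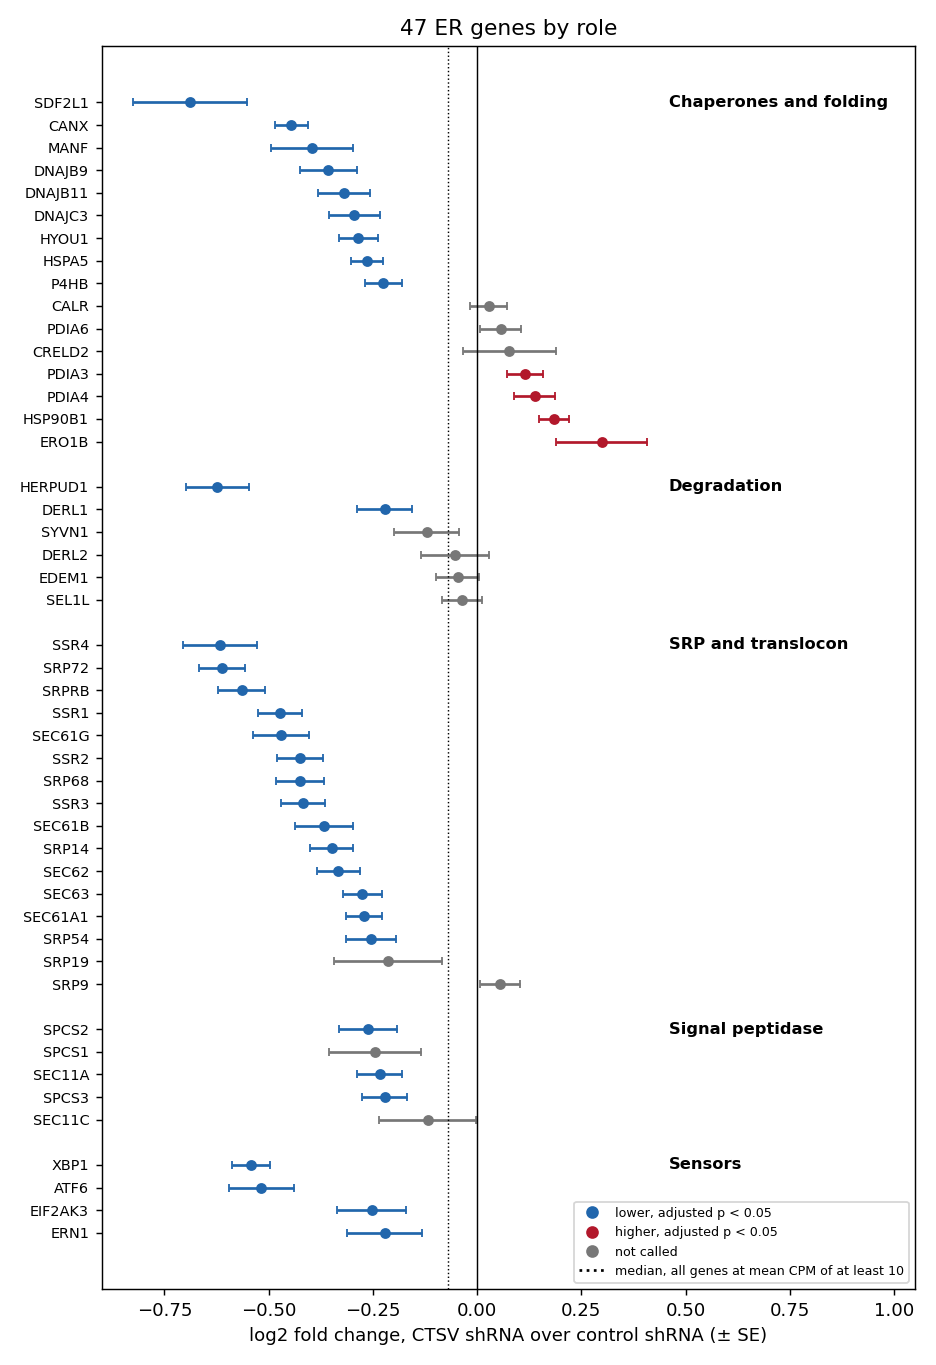
Log2 fold change (CTSV shRNA over control shRNA, n = 3 each) of the 47 genes by role, with bars of 1 SE. Nearly all SRP, translocon and sensor genes lie left of the dotted median of genes at 10 CPM or more, at -0.07, while chaperones span from -0.69 to 0.30.

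Before the members, the state of the libraries is given in brief. Totals lay between 16258803 and 18106207 counts. CTSV had 755, 740 and 658 counts in the control libraries and 304, 264 and 296 in the knockdown libraries, a log2 fold change of -1.34. Mitochondrial transcripts took 9.09% to 9.51% of control and 11.4% to 11.8% of knockdown counts. With those genes left out, an alternative added after the data were seen, the members still counted 32 lower and 4 higher. All 8 hepatocyte markers fixed for the check were present. Their summed level was 33638 to 34413 CPM in controls and 41088 to 42145 in knockdown libraries, with 5 of the 8 called higher and TTR called lower. Of the other cell types, 4 of 5 fibroblast markers summed to 44.5 to 48.3 and 59.0 to 65.2 CPM, PECAM1 alone of 4 endothelial markers to 16.6 to 21.6 and 17.3 to 19.2 CPM, and 2 of 4 leukocyte markers to 75.1 to 84.0 and 56.3 to 61.9 CPM, and the rest were not analysed here. Single markers within these lists differed widely. The control means of CD14 and COL1A1 were 2.60 and 0.138 CPM, those of LYZ, LUM and COL1A2 76.2, 35.9 and 9.41 CPM. The leukocyte marker LYZ was called lower after knockdown (log2 fold change -0.42). The fibroblast markers LUM and COL1A2 were called higher (0.21 and 1.02). CD14, PDGFRB and PECAM1 were not called, and COL1A1 was not tested. The part of these shifts in the ER results was not tested.

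BiP and its cochaperones fell in 6 of 6 genes, with a median of -0.31, where 33.4% of all tested genes at 10 CPM or more fell. HSPA5 encodes BiP, the ER's Hsp70, and lies on chromosome 9 from 125234853 to 125241330 (hg38, minus strand). It was at 1111, 1134 and 1102 CPM in the control libraries and 927, 934 and 926 in the knockdown libraries. The groups did not overlap and the 3 knockdown values lay within 10 CPM of each other. The log2 fold change was -0.26 (SE 0.0385, edgeR adjusted p = 7.59e-07). HYOU1, the large Hsp70 that exchanges BiP's nucleotide, was at 302, 313 and 310 CPM and then 251, 262 and 246 CPM, a log2 fold change of -0.28 (SE 0.0465). The J-domain proteins that set BiP to work fell by similar amounts: DNAJB9 had -0.36, DNAJB11 -0.32 and DNAJC3 -0.29.

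SDF2L1, a small partner of DNAJB11, fell too. Its levels were 14.1, 18.3 and 15.7 CPM in controls and 9.42, 10.9 and 9.44 CPM in knockdown libraries. All 3 knockdown libraries lay below the lowest control, a log2 fold change of -0.69 (SE 0.136, edgeR adjusted p = 9.25e-05). With offsets for transcript length and GC content it was -0.48, still called (edgeR adjusted p = 0.00271). MANF, a secreted ER protein that binds BiP, also fell (-0.40, SE 0.0985), though its groups overlapped. Control library 1, at 58.5 CPM, stood above the other two controls, 46.3 and 45.5 CPM, and knockdown library 1 reached 45.6 CPM against 35.7 and 33.0. Without control library 1 the value was -0.27 and still called (edgeR adjusted p = 0.0409). CRELD2, another small ER-resident protein induced by stress, was not called (0.08, 95% interval -0.14 to 0.30).

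GRP94 went the other way. HSP90B1, which encodes this ER form of Hsp90, was at 1545, 1577 and 1572 CPM in controls and 1780, 1762 and 1789 CPM in knockdown libraries. Every knockdown library was above every control, a log2 fold change of 0.18 (SE 0.0361, edgeR adjusted p = 7.76e-05). Per kilobase of annotated exon HSP90B1 had the highest level of the 47 in both groups, 333 CPM in controls and 378 in knockdown libraries, ahead of HSPA5 at 285 and 238, and its length was taken over all annotated exons. The HSPA5 to HSP90B1 count ratio, which no scaling between libraries can alter, was 0.719, 0.719 and 0.701 in controls and 0.521, 0.530 and 0.517 in knockdown libraries.

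The 2 lectin chaperones, which hold glycoproteins while they fold, parted as well. CANX encodes the membrane-bound calnexin and CALR its soluble relative calreticulin. CANX stood at 1576, 1491 and 1533 CPM in controls and 1099, 1108 and 1168 CPM in knockdown libraries, without overlap. Its log2 fold change was -0.45 (SE 0.0390, edgeR adjusted p = 1.16e-11), a loss of 26.6%. CALR was at 563, 612 and 555 CPM and then 604, 590 and 569 CPM, overlapping ranges with a log2 fold change of 0.03 (95% interval -0.06 to 0.11). With offsets for transcript length and GC content it was called higher, at 0.10 (edgeR adjusted p = 0.0221). The CANX to CALR ratio went from 2.66 ± 0.198 to 1.92 ± 0.121 (SD, n = 3 each).

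Disulfide isomerases split too. P4HB, the classic protein disulfide isomerase, was at 400, 427 and 418 CPM in controls and 364, 357 and 344 in knockdown libraries and fell (-0.22, SE 0.0450). PDIA3, the isomerase that works with the lectin chaperones, was at 408, 419 and 395 CPM and then 444, 445 and 433 CPM. Its groups did not overlap and it rose, by 0.11 (SE 0.0437, edgeR adjusted p = 0.0349). PDIA4 rose by 0.14 (SE 0.0489, adjusted p = 0.0223), from 261, 271 and 268 to 280, 315 and 285 CPM. Its value was 0.08 and not called without knockdown library 2 (edgeR adjusted p = 0.26). PDIA6 had 0.06 (95% interval -0.04 to 0.15). ERO1B, an oxidase that recharges the isomerases, had overlapping groups, 25.4, 20.4 and 21.8 CPM and then 23.6, 28.2 and 31.3 CPM, with a log2 fold change of 0.30 (SE 0.109, edgeR adjusted p = 0.0266). The rises of PDIA3, PDIA4 and ERO1B were each lost in several alternatives, such as without control library 3, where their log2 fold changes were 0.09, 0.14 and 0.27 (adjusted p = 0.17, 0.0544 and 0.0825 by edgeR). Of the 4 rises only HSP90B1 kept its call in all 13 alternatives run. PDIA3 has a transcribed pseudogene, PDIA3P1, with 5.35% of its counts and a log2 fold change of 0.31, and the sources used here do not say how reads matching both were assigned.

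**Figure D2:**
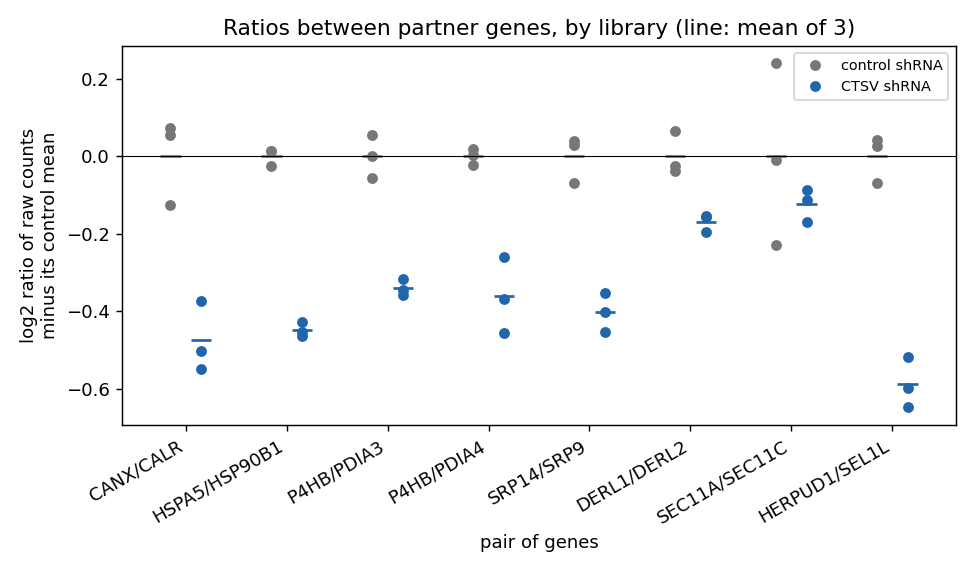
Log2 ratio of raw counts for 8 pairs of partner genes in each library, minus the mean of the 3 control libraries (grey, control shRNA; blue, CTSV shRNA; line, mean of 3). In 7 of the 8 pairs the knockdown libraries lie below all control libraries.

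Ratios of raw counts within a library do not depend on the scaling between libraries. The 8 pairs were chosen with the results known, so their ratios are a description and carry no test. P4HB to PDIA3 went from 1.02 ± 0.0392 to 0.806 ± 0.0118 and SRP14 to SRP9 from 0.641 ± 0.0263 to 0.485 ± 0.0169 (SD, n = 3 each). SEC11A to SEC11C overlapped between groups.

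Of the 7 genes of SRP and its receptor 5 fell, beside 33.4% of all tested genes at 10 CPM or more. SRP9 and SRP19 were not called. The particle's Alu domain is a heterodimer of SRP9 and SRP14, which slows elongation. SRP14 was at 180, 196 and 183 CPM in controls and 147, 143 and 149 CPM in knockdown libraries, without overlap (-0.35, SE 0.0517, edgeR adjusted p = 9.90e-07). SRP9 was at 295, 297 and 280 CPM and then 303, 285 and 318 CPM, overlapping ranges with a log2 fold change of 0.05 (95% interval -0.04 to 0.15). SRP9 turned to -0.05, not called, with offsets for transcript length and GC content.

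SRP68 and SRP72 form the other heterodimer. SRP72 was at 187, 172 and 170 CPM in controls and 114, 121 and 110 CPM in knockdown libraries. The gap between the groups was wider than the range within either, and the log2 fold change was -0.61 (SE 0.0552, edgeR adjusted p = 2.38e-11), a loss of 34.6%. SRP68 had -0.42 (SE 0.0581) and SRP54, the GTPase that binds the signal sequence, -0.25 (SE 0.0603). SRP19, which assembles the particle, had -0.21 and was not called (edgeR adjusted p = 0.192). It was called lower with length and GC offsets (-0.31, edgeR adjusted p = 0.045), and at 14.4 and 12.4 CPM it was the least expressed of the SRP genes. SRPRB, the membrane subunit of the receptor, fell from 122, 120 and 119 CPM to 78.0, 84.1 and 81.3 CPM (-0.57, SE 0.0574). It shares 112 exon bases on the same strand with the transferrin gene TF, which has 1167% as many counts and rose by 0.54.

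All 5 channel genes fell without overlap between groups. Among all tested genes at 10 CPM or more, 33.4% fell and 37.3% had every knockdown library below every control. SEC61A1 encodes the pore itself and was at 486, 487 and 476 CPM in controls and 392, 409 and 399 CPM in knockdown libraries. The 3 values of each group lay close together, and the log2 fold change was -0.27 (SE 0.0431, edgeR adjusted p = 3.01e-06). The small subunits had values of -0.37 for SEC61B and -0.47 for SEC61G, with SEs of 0.0700 and 0.0667. SEC62 and SEC63, which serve chains that arrive after translation and bring BiP to the channel, had -0.33 and -0.28.

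The translocon-associated protein complex TRAP, 4 membrane proteins beside the channel that aid some signal sequences, fell in full. The shares of all tested genes at 10 CPM or more were again 33.4% lower and 37.3% lower in every knockdown library. SSR4 was at 52.1, 56.3 and 45.7 CPM in controls and 36.4, 29.4 and 34.6 CPM in knockdown libraries, a log2 fold change of -0.62 (SE 0.0889, edgeR adjusted p = 5.91e-07). SSR1 had -0.47, SSR2 -0.43 and SSR3 -0.42, each with every knockdown library below every control. The median over the 4 was -0.45, against -0.33 for the 5 channel genes and -0.35 for the 7 genes of SRP and its receptor.

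**Figure D3:**
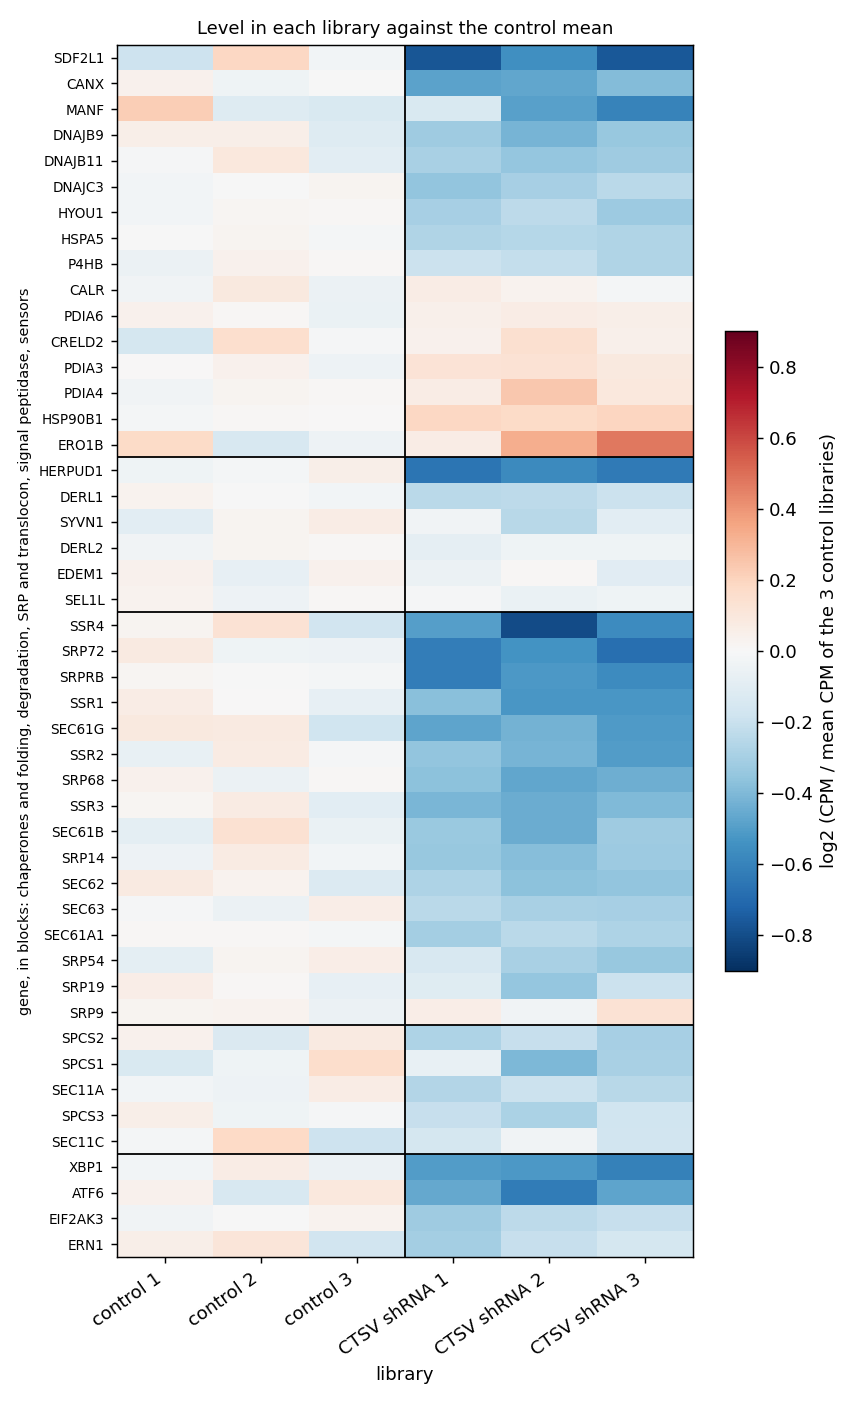
Level of each of the 47 genes in each of the 6 libraries, as log2 of CPM over the mean CPM of the 3 control libraries (blue lower, red higher), in blocks by role. The knockdown columns are blue through most of the SRP, translocon and sensor blocks, with SRP9 pale, and mixed among the chaperones.

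Of the 5 signal peptidase genes 3 fell. SEC11A, a catalytic subunit, was at 138, 136 and 147 CPM in controls and 117, 123 and 118 CPM in knockdown libraries and fell by 0.23 on the log2 scale (SE 0.0541, edgeR adjusted p = 0.000624). Its paralog SEC11C, the alternative catalytic subunit, was at 18.8 ± 2.37 and 17.3 ± 0.937 CPM (SD, n = 3 each) and was not called (-0.12, 95% interval -0.35 to 0.11). SPCS2 and SPCS3, accessory subunits, had -0.26 and -0.22. SPCS1 had a log2 fold change of -0.25 but overlapping groups, 21.9, 23.5 and 27.0 CPM and then 23.1, 18.3 and 19.7 CPM, and was not called (edgeR adjusted p = 0.075). It was called lower with length and GC offsets (-0.26, edgeR adjusted p = 0.0441), without control library 1 (-0.32, 0.0418) and without knockdown library 1 (-0.34, 0.022). SPCS2 has a processed pseudogene, SPCS2P4, that holds 15.7% as many counts and had a log2 fold change of -1.26.

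In the degradation group HERPUD1 and DERL1 fell and the other 4 genes were not called. HERPUD1, which encodes a membrane scaffold of the HRD1 complex, was at 54.9, 55.8 and 58.7 CPM in controls and 35.7, 37.9 and 36.2 CPM in knockdown libraries. No library of one group came near the other, and the log2 fold change was -0.62 (SE 0.0763, edgeR adjusted p = 2.41e-08), a loss of 35.1%. SEL1L, the adaptor, was at 213, 203 and 211 CPM and then 207, 201 and 203 CPM, overlapping ranges with a log2 fold change of -0.04 (95% interval -0.13 to 0.06). With length and GC offsets it was called lower, at -0.13 (edgeR adjusted p = 0.0146). SYVN1, which encodes the HRD1 ubiquitin ligase, had -0.12 (-0.27 to 0.03). EDEM1, which marks glycoproteins for disposal, had -0.05 (-0.15 to 0.06). Of the 2 derlins, which form part of the exit channel, DERL1 fell (-0.22, SE 0.0658, edgeR adjusted p = 0.00649) and DERL2 had -0.05 and was not called (adjusted p = 0.642).

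All 4 sensor genes, with XBP1 counted among them, were lower in knockdown libraries. XBP1, the transcription factor that IRE1 activates by splicing its mRNA, was at 579, 618 and 568 CPM in controls and 416, 411 and 386 CPM in knockdown libraries. The groups were far apart, with a log2 fold change of -0.54 (SE 0.0451) and the smallest adjusted p of the set, 3.46e-12 by edgeR. Counts per gene do not show how much of that mRNA was spliced. ATF6, the sensor whose cleaved form binds ERSE, was at 63.2, 55.5 and 65.6 CPM and then 44.7, 39.8 and 44.1 CPM, also without overlap (-0.52, SE 0.0776, edgeR adjusted p = 1.19e-06). EIF2AK3, which encodes PERK, fell by 0.25 (SE 0.0830, adjusted p = 0.0138) and ERN1, which encodes IRE1, by 0.22 (SE 0.0908, adjusted p = 0.0485). ERN1 overlapped between groups, 38.2, 39.7 and 32.7 CPM and then 29.8, 31.9 and 33.1 CPM, and was not called in 6 alternatives, among them the replicate block (edgeR adjusted p = 0.052) and DESeq2 (0.0848). EIF2AK3 was not called without knockdown library 1 (edgeR adjusted p = 0.0631).

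Other genes of the route were counted from a list of 100, chosen for function with earlier results known, of which 97 were tested. In that list 55 fell, 7 rose and 35 were not called, with a median of -0.20. The shares lower and higher were 56.7% and 7.22%, beside 33.4% and 19.8% of all tested genes at 10 CPM or more. Insertion and glycosylation genes followed the translocon, with 15 of 22 lower and 0 higher. TRAM1, a translocon partner, fell from 328 ± 17.6 to 241 ± 13.3 CPM (SD, n = 3 each), a log2 fold change of -0.45, and DAD1, an oligosaccharyltransferase subunit, had -0.53. Of 13 retrieval and export genes 11 fell and 1 rose. LMAN1 and LMAN2, cargo lectins, had -0.36 and -0.40, and the coat GTPase gene SAR1B rose by 0.18, which was 0.06 and not called with length and GC offsets (edgeR adjusted p = 0.398). SAR1B shares 385 exon bases with SEC24A on the opposite strand.

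**Figure D4:**
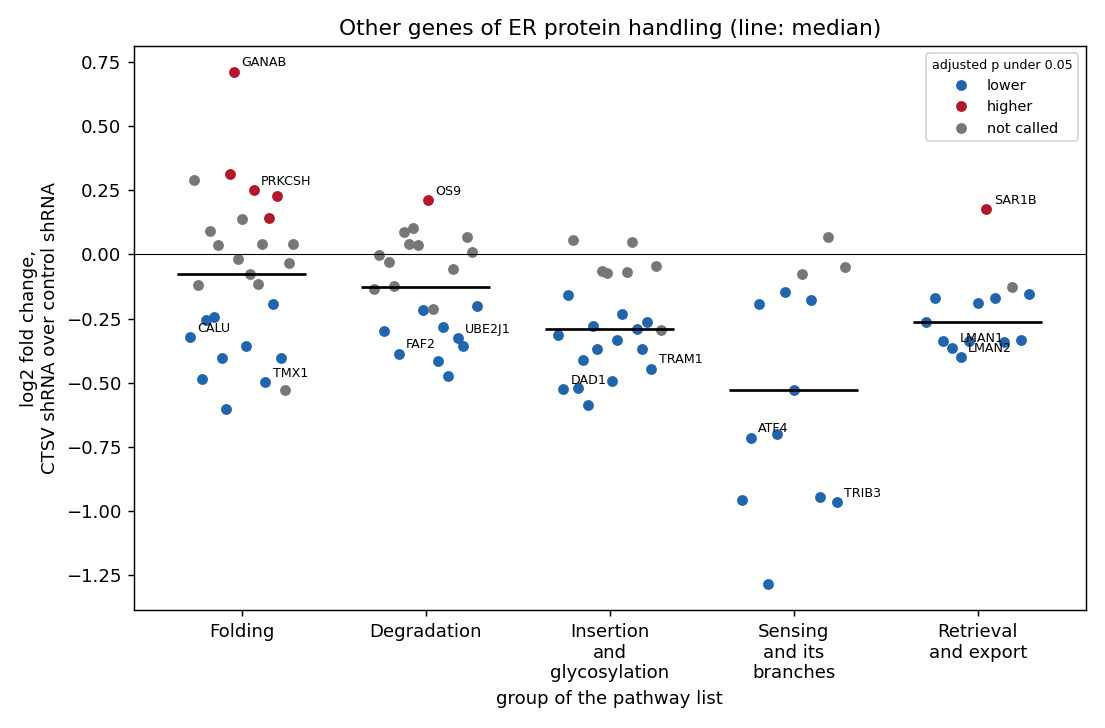
Log2 fold change of the 97 tested genes of the list, in 5 groups (blue lower, red higher, grey not called, line the group median; points are spread sideways by name). The branch genes of sensing reach lowest, and GANAB stands highest at 0.71.

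Among sensing genes and their branches 10 of 13 fell and 0 rose, with a median of -0.53. ATF4 encodes a transcription factor of the PERK branch. Its mRNA was at 538, 565 and 520 CPM in controls and 341, 338 and 311 CPM in knockdown libraries, a log2 fold change of -0.71. Counts of this mRNA do not measure PERK signalling. TRIB3, a target of ATF4, had -0.97. Of 22 tested degradation genes 9 fell and 1 rose, or 40.9% and 4.55%. Among all tested genes at 10 CPM or more 33.4% fell and 19.8% rose. The extraction factor gene FAF2 had -0.39, the conjugating enzyme gene UBE2J1 -0.33, and OS9, a lectin of the HRD1 complex, rose by 0.21.

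Of 27 folding genes on the list 10 fell and 5 rose, or 37.0% and 18.5%, with a median of -0.07. Those shares lay near the 33.4% and 19.8% of all tested genes at 10 CPM or more. The isomerase gene TMX1 had -0.50 and the calcium-binding protein gene CALU -0.32. GANAB rose most. It encodes the catalytic subunit of glucosidase II, which trims glycans so that calnexin and calreticulin can bind, and was at 585, 581 and 602 CPM in controls and 960, 968 and 966 CPM in knockdown libraries. The rise of 63.7% (log2 fold change 0.71, SE 0.0402, edgeR adjusted p = 1.02e-16) lay between 0.69 and 0.72 in the alternatives. PRKCSH, the regulatory subunit, rose by 0.25 (SE 0.0457), from 263 ± 1.73 to 313 ± 7.57 CPM (SD, n = 3 each).

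Exon length and GC content had only weak rank correlations with the changes of the members. Across the 47, Spearman's rho of the log2 fold change was 0.05 with exon length, -0.07 with GC content and 0.09 with mean level, given as descriptions over genes that share the same 6 libraries. Median exon length was 5369 bases for the 32 lower members, 4467.5 for the 4 higher and 5324 for the 11 not called. Offsets for length and GC content did change some calls, with 35 members lower and 5 higher. Strand use in counting is not stated, and 11 members share at least 100 exon bases with another gene that has at least 10% as many counts. These are CRELD2, DERL1, DERL2, DNAJB9, DNAJB11, SEC61A1, SPCS1, SRP19, SRPRB, SSR4 and SYVN1, whose values are uncertain to that extent. For SEC61A1 the partner is RUVBL1, on the other strand, with 19.9% as many counts and a log2 fold change of -0.32. For SRP19 it is REEP5, with 686% as many counts and -0.24.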

How the data were processed

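Poly(A) RNA-seq of 6 Huh7 libraries (3 control shRNA, 3 CTSV shRNA, grouped by title) was used as 1 table of raw read counts per gene, deposited by the authors without normalization. The submitters' processing notes name hg38, SAMtools, HISAT2 and StringTie; the sources used here do not give the counter or annotation. The deposited log2 fold changes (control over knockdown) and adjusted p-values are the authors' own. Of 28915 entries, 1521 repeats of a name, with equal counts, were removed. Fits used edgeR 4.0.16 (R 4.3.3), quasi-likelihood, TMM, filterByExpr, Benjamini-Hochberg adjustment over 15968 genes, no covariate. Totals of 16258803 to 18106207 counts and a biological coefficient of variation of 6.87% set the precision. Each SE printed is the absolute log2 fold change over the square root of edgeR's F value. Intervals are 1.96 SE, a normal multiple, and so are somewhat narrower than the F test would give. Exon lengths came from GENCODE v29. The fit was tested on simulated data. Alternatives were RLE factors, 2 other filters, a replicate block, DESeq2 1.42.0, length and GC offsets (loess, span 0.5), each library left out and, added later, no mitochondrial genes. Members, roles and lists were chosen with earlier results of these data known. Named besides the 47 members and CTSV were up to 2 called rises and 2 called falls of smallest adjusted p per group of the list of 100 genes.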

Additional observations from a re-analysis of the deposited data

How the results depend on the processing

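Of the 32 members called lower, 30 kept that call in all 13 alternatives; the exceptions were ERN1 and EIF2AK3. Of the 4 called higher, 1 did, HSP90B1. Without a filter on low counts 2 members were called higher, and with 1 library left out 1 to 3 were. Sensor genes called lower numbered 2 to 4 with 1 library left out, 2 being without knockdown library 1. With length and GC offsets 35 members were lower and 5 higher. With 1 library left out CALR ranged from -0.0028 (without control library 3) to 0.0678 and CRELD2 from -0.0019 (without control library 1) to 0.1565, and SRP9 was -0.0515 with length and GC offsets, so that signs turned, none of these values being called; the cause was not tested. Of 611 values of members under an alternative, 581 kept direction and side of the threshold, 21 lost the call and 6 gained it; the gains were SPCS1 in 3 alternatives and CALR, SEL1L and SRP19 with length and GC offsets. With the replicate number as a block 31 members were lower and 4 higher, and 6486 of all tested genes were called, against 6433 without it. Deviations of equally numbered libraries correlated at -0.0122, -0.00253 and 0.0212, and those of unequally numbered ones at -0.0335 to 0.0344. Such values cannot show whether equal numbers mark a shared culture or day, and the labels do not say. Depth limits the least expressed members: SDF2L1, SRP19, SEC11C, CRELD2 and SPCS1 had SEs of 0.111 to 0.136.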
